A study of Mus musculus with 4 samples.

Results

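The sensors, transcription factors and processing proteases of the unfolded protein response were followed in tibialis anterior muscle (TA, a fast muscle of the lower leg) and heart of mice lacking MG56, the protein encoded by Hhatl. The group was set by function, with earlier results of these data known. It holds 9 genes, namely Ern1, Eif2ak3, Atf6, Atf6b, Xbp1, Mbtps1, Mbtps2, Creb3l1 and Creb3l2, of 18193 genes that the array names, and every probe set annotated to 1 of these symbols alone was used, 23 in all. A further probe set that is annotated to Mbtps2 and to Yy2 together was left out. Hspa5, Dnajb9 and Ddit3, 3 genes by which the arms of the response are commonly read, served for comparison.

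The samples were 4 Affymetrix arrays, 1 each for knockout TA, wild-type TA, knockout heart and wild-type heart, all at postnatal day 9 and on the C57BL/6J background. Knockout RNA came from 3 mice mixed into a pool, and wild-type RNA was mixed likewise, for which the labels give no number of mice. Each group is therefore 1 array of pooled RNA with no replicate error, no p-value can be given, and every ratio below compares pools of RNA. The labels do not describe the knockout allele or the sex of the animals.

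The unfolded protein response adjusts the folding capacity of the endoplasmic reticulum (ER). IRE1, encoded by Ern1, is a kinase and ribonuclease that splices the messenger RNA of Xbp1 into the form encoding an active transcription factor. PERK, encoded by Eif2ak3, phosphorylates the initiation factor eIF2 and thereby favours translation of ATF4, which drives Ddit3, the gene of the transcription factor CHOP. ATF6 and its relative ATF6B, like the membrane-bound factors of Creb3l1 and Creb3l2, travel to the Golgi, where the site-1 and site-2 proteases of Mbtps1 and Mbtps2 release their transcription factor domain. Activation thus takes place on protein and by splicing, and the arrays measure only the total messenger RNA of each gene. In striated muscle the reticulum also stores calcium for contraction.

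ATF6 and XBP1 act on promoters with the ER stress response element (ERSE), a CCAAT box and a CCACG sequence set 9 bases apart. The promoter tables of RefSeq (build GRCm38.p6, 250 bases before to 50 after a gene's start) were searched on both strands, and held 7 of the 9 genes and all 3 readouts. The printed sequences run 5′ to 3′ over the 250 bases before the start, with each CCAAT or CCACG on either strand in capitals (ATTGG is CCAAT on the opposite strand). Hspa5, the gene of the ER chaperone BiP (chr2:34771840-34772089, plus strand), and Dnajb9, the gene of an ER co-chaperone (chr12:44210069-44210318, minus strand), are shown as readouts, and Xbp1 (chr11:5520391-5520640, plus strand) and Eif2ak3 (chr6:70844265-70844514, plus strand) as a factor and a sensor whose signals differed unequally between the genotypes in TA. Ddit3 (chr10:127290543-127290792, plus strand) is the readout of the PERK arm.
Hspa5: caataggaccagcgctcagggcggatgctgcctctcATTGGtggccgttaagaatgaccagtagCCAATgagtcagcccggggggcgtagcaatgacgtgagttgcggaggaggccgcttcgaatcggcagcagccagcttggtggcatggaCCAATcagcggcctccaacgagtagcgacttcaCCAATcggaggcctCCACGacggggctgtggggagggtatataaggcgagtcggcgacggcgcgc
Dnajb9: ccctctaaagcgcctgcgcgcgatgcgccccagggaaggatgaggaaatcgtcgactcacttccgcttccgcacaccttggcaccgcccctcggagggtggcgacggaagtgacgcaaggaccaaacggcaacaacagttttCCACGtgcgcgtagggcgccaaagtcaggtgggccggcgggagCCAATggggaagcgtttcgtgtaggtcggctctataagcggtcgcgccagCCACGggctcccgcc
Ddit3: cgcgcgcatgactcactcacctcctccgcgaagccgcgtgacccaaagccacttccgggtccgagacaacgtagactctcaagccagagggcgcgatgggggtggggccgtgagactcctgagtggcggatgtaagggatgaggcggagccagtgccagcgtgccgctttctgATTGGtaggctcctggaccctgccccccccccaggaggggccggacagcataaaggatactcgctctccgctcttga
Xbp1: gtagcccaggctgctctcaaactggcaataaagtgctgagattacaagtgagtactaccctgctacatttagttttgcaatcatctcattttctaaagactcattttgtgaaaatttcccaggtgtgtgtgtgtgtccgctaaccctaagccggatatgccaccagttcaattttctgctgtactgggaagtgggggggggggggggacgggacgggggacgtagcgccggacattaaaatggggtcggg
Eif2ak3: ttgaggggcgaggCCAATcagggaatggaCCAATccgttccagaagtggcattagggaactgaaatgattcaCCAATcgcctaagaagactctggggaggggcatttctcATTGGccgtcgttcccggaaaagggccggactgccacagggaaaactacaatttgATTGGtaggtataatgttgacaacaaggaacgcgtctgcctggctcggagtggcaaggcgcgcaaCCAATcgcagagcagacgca
In this window Hspa5 held 4 CCAAT boxes and 1 CCACG, which together form 1 full ERSE from 65 to 47 bases before the start. Dnajb9 held 1 CCAAT and 2 CCACG without the ERSE spacing, Ddit3 held 1 CCAAT, Eif2ak3 held 6 CCAAT boxes and 0 CCACG, and Xbp1 held 0 of either. Only exact matches were counted, here and below, so an element with a changed base is missed. In Ddit3 the CCAAT has GCACG at the ERSE spacing, 1 base off CCACG.

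The full ERSE, CCAAT and CCACG with 9 bases between, lay in 0 of the 7 member promoters, in 1 of the 3 readout promoters and in 0.119% of all 32851 promoters of the same length. ERSE-II, ATTGG and CCACG with 1 base between, which overlaps the single CCAAT and CCACG matches, lay in 0.0365% of them. The core of the XBP1 element, TGACGTGG, and the ATF4 element, TGATGNAAT, lay in 0.676% and 0.965%. Neither of these was in a member or readout promoter. Most known targets lacked them in this window too. The XBP1 core lay in 2 of 16 promoters in the list of IRE1 and XBP1 targets (Kdelr3 and Sec24d). The ATF4 element lay in 2 of 19 in the list of PERK and ATF4 targets (Fgf21 and Nupr1). Absence of an exact match here therefore says little about a gene. CCAAT alone was found in 37.4% and CCACG alone in 32.8%. In the list of known ATF6 targets, 7 of 12 promoters held a full ERSE, in that of IRE1 and XBP1 targets 2 of 16 (Dnajc3 and Pdia6), and in that of PERK and ATF4 targets 0 of 19. The element was defined on ATF6 targets, so these counts describe the lists and test nothing. All genes of these lists with a full ERSE were above wild type in knockout TA, from 1.82-fold for Canx to 11.6-fold for Creld2. A higher signal was not confined to them. In the ATF6 list the promoters of Sdf2l1, Pdia4, Sel1l and Os9 held no exact ERSE or ERSE-II. Knockout TA was 20.0-fold, 7.82-fold, 3.12-fold and 1.06-fold above wild type for these. The part of the element in the ratios was not tested. The stretches below show the ERSE with 8 bases on either side, in the orientation of the element and with its fixed bases in capitals.
Hspa5: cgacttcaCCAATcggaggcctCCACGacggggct
Hsp90b1: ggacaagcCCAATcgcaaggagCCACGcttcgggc
Hsp90b1: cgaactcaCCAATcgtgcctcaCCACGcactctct
Calr: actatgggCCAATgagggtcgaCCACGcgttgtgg
Canx: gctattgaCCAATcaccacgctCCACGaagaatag
Creld2: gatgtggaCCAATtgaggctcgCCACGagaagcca
Syvn1: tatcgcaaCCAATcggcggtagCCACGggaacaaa
Derl3: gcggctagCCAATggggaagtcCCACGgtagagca
Dnajc3: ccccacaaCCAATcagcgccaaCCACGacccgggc
Pdia6: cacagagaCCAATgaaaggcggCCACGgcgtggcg
Herpud1 and Dnajb11 held the ERSE-II in place of the ERSE, in Dnajb11 after the start. That of Herpud1 is shown with the 11 bases of the element in capitals.
Herpud1: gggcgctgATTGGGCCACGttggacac

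The 4 arrays were on 1 scale, with trimmed mean signals between 496 and 497 (2% left off at either end). The median of all signals, 101.3, was used as a floor to which lower signals were raised, and a gene or probe set counts as measured if an array of the comparison reached it. Hhatl itself had signals of 1078 in knockout and 5491 in wild-type TA, and of 880 and 2110 in heart, so both knockout pools were lower. Its 1 probe set may lie outside the deleted part and then checks nothing. All 10 skeletal muscle label genes were higher in wild-type TA than in wild-type heart and all 10 heart label genes lower, with medians of 8.45 and -7.33 on the log2 scale. The genotype pools also differed in sex-linked transcripts: Xist was 1.44-fold lower in knockout TA and 1.30-fold lower in knockout heart, and the Y-linked Uty 2.71-fold and 2.29-fold higher.

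Of the 9 genes, Atf6 and Xbp1 stood apart in TA, where both were about as far above wild type as each other. Counted at 1.5-fold, 2 of 9 were higher in the knockout pool and 0 lower, against 4.19% and 4.44% of all 11528 genes measured there. Both also passed 2-fold, which 0.954% of all genes did upwards and 0.920% downwards. The median log2 ratio of the 9 genes was 0.20, against -0.01 over all genes. By probe set, 17 of the 23 were measured in TA, and 8 of these were at least 1.5-fold higher and 0 lower, against 4.46% and 4.59% of 20165 probe sets of 1 symbol. The 8 were 4 of Xbp1, 3 of Atf6 and 1 of Creb3l2. Probe sets of a gene were read on the same arrays and are not independent. Which part of a transcript each one reads is not known here.

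In heart, 0 of 9 genes were 1.5-fold higher in the knockout pool (2.67% of 11452 genes) and 1, Creb3l1, was lower (4.18%). The median log2 ratio was 0.04, against -0.002 over all genes. Of 17 measured probe sets, 0 were 1.5-fold higher and 1 lower, where 3.73% and 3.93% of all 20339 were. The log2 ratio in TA minus that in heart had a median of 0.18 over the 9 genes, and 2, Xbp1 and Atf6, had a difference of at least 1.5-fold upwards, as had 6.44% of the 10802 genes measured in both tissues, and 0 downwards (5.10%). With 1 array a group none of these differences could be tested.

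**Figure D1:**
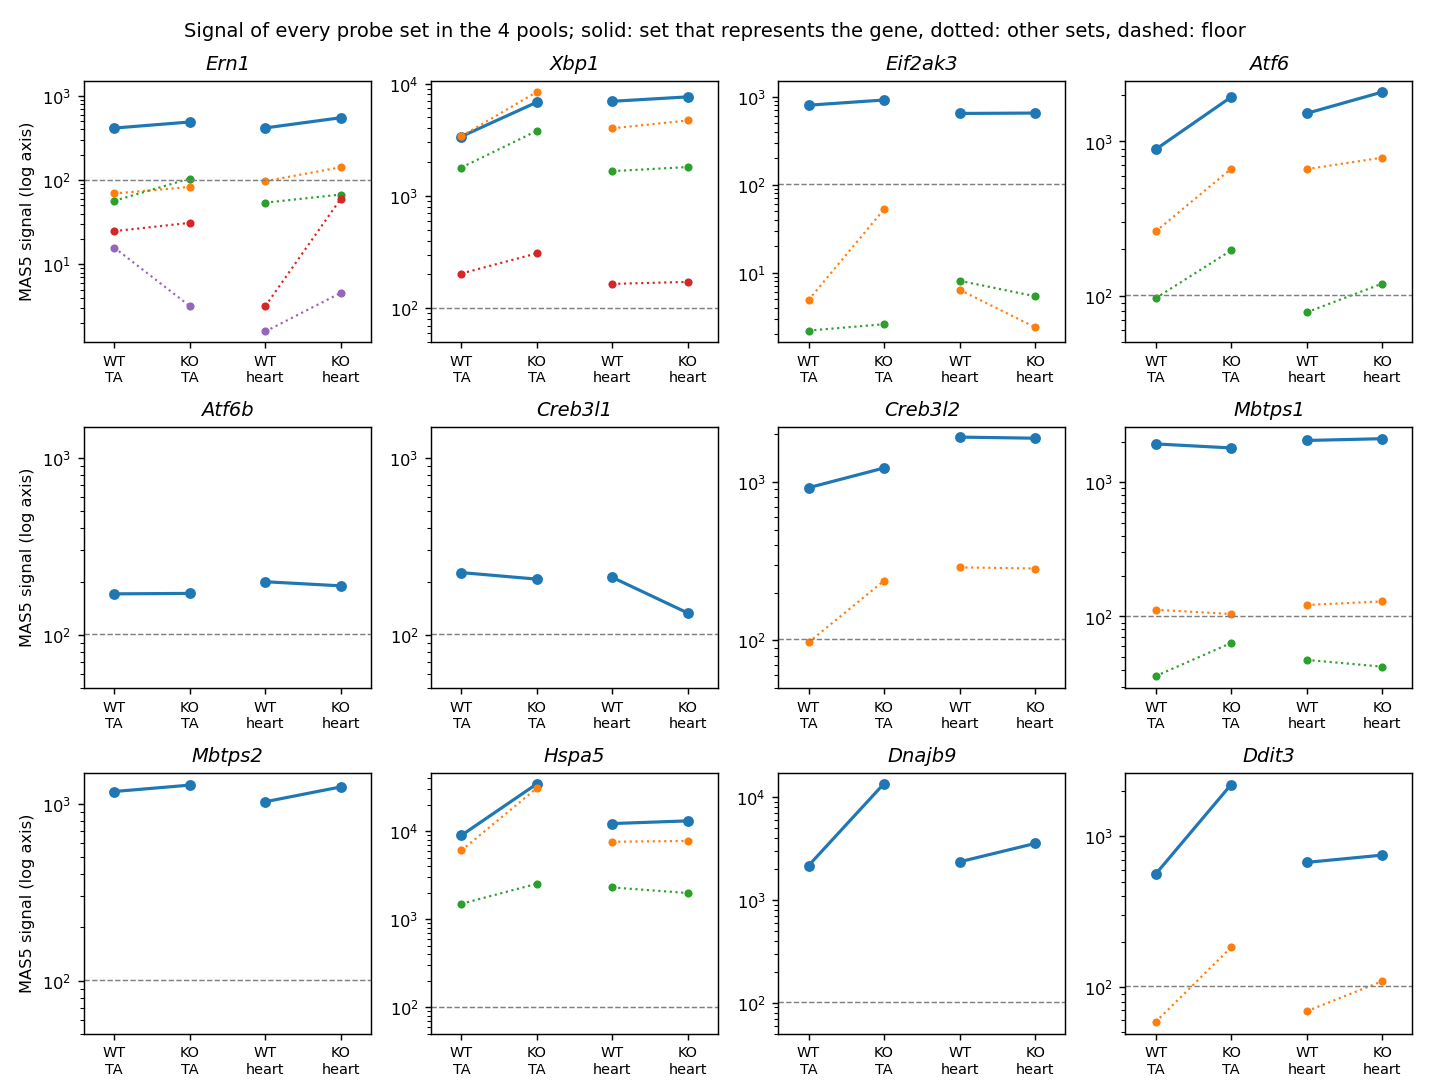
MAS5 signal (log axis) of every probe set of the 9 genes and the 3 readouts in the 4 pools, each point 1 array, with lines joining the genotypes within a tissue. Solid lines mark the probe set that stands for the gene, dotted lines the others and the dashed line the floor of 101.3; all 4 lines of Xbp1 and all 3 of Atf6 climb from wild-type to knockout TA, while those of Mbtps1 and Atf6b above the floor are nearly flat.

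Ern1 is the gene of the IRE1 sensor. Its brightest probe set (1437119_at) had signals of 490 in knockout TA, 415 in wild-type TA, 551 in knockout heart and 417 in wild-type heart. Both knockout pools lay above their wild types, by 1.18-fold in TA and 1.32-fold in heart, and both wild types were alike (log2 ratio -0.01). In TA, 21.2% of the 4551 genes within 2-fold of its brightness were at least as far above wild type, and in heart 7.67% of 4522. Of the other 4 probe sets, 2 were below the floor on all arrays and 2 reached it on 1 array each.

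Xbp1, the transcription factor gene whose messenger IRE1 splices, had 4 probe sets, all above the floor on all arrays. The brightest (1437223_s_at) gave 6832 in knockout TA, 3378 in wild-type TA, 7612 in knockout heart and 6953 in wild-type heart. The second (1420886_a_at) gave 8439, 3400, 4695 and 3998 in the same order. Probe set 1420011_s_at gave 3796, 1790, 1808 and 1662, and 1420012_at gave 309, 204, 172 and 165. On every one of them knockout TA was above wild-type TA, by 2.02-fold, 2.48-fold, 2.12-fold and 1.51-fold. In heart the same ratios were 1.10-fold, 1.17-fold, 1.09-fold and 1.04-fold. Among the 1499 genes within 2-fold of the brightness of the first probe set in TA, 1.33% were at least as far above wild type. Spliced and unspliced messengers are not given separately by the values used here.

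Eif2ak3, the gene of the PERK sensor, had signals of 914 in knockout TA, 797 in wild-type TA, 649 in knockout heart and 643 in wild-type heart. Knockout TA was 1.15-fold above wild type, a distance reached upwards by 23.7% of the 4419 genes of like brightness, and the hearts differed by 1.01-fold. The other 2 probe sets were under the floor on all 4 arrays and give no ratio.

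Atf6, the gene of the main sensor cleaved in the Golgi, had signals of 1942 in knockout TA, 888 in wild-type TA, 2092 in knockout heart and 1522 in wild-type heart on its brightest probe set (1435444_at). The second (1456021_at) gave 666, 261, 786 and 662. Wild-type TA was the lowest of the 4 arrays on both. Knockout TA was 2.19-fold and 2.55-fold above wild-type TA, and knockout heart 1.37-fold and 1.19-fold above wild-type heart. The dimmest probe set (1453288_at), with 197 in knockout and 96.4 in wild-type TA, gave at least 1.94-fold. Among 3736 genes within 2-fold of the brightness of Atf6 in TA, 0.776% were at least as far above wild type, and in heart 3.35% of 3462 were. Its log2 ratio was 0.67 higher in TA than in heart, and 4.71% of all genes measured in both differed as much in that direction.

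Atf6b, whose product is a weaker relative of ATF6, gave 171 in knockout TA, 170 in wild-type TA, 189 in knockout heart and 199 in wild-type heart. All 4 signals were within 2-fold of the floor, and the genotypes differed by 1.01-fold in TA and 1.06-fold in heart. The floor limits how far a gene this dim can be seen to lie lower, but not higher.

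Creb3l1 encodes OASIS, a membrane-bound factor known from bone-forming cells. Its 1 probe set gave 206 in knockout TA, 225 in wild-type TA, 133 in knockout heart and 211 in wild-type heart. Knockout heart was the lowest, 1.59-fold under wild type, and TA differed by 1.09-fold. In heart 5.72% of 3357 genes of like brightness were at least as far below wild type.

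Creb3l2 encodes BBF2H7, known for secretory transport in cartilage. Its brightest probe set (1452381_at) gave 1226 in knockout TA, 920 in wild-type TA, 1891 in knockout heart and 1922 in wild-type heart. Knockout TA was 1.33-fold above wild type and the hearts differed by 1.02-fold. The second probe set (1437396_at) gave 238, 97.0, 284 and 289, hence at least 2.35-fold in TA and 1.02-fold in heart. Both put wild-type TA lowest and agree in direction in TA, but not on whether the difference passed 1.5-fold. Taken as the median of its probe sets, Creb3l2 had a log2 ratio of 0.82 in TA, which brings the count of higher genes to 3 of 9.

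The proteases differed little. Mbtps1, the gene of the site-1 protease, gave 1800 in knockout TA, 1928 in wild-type TA, 2109 in knockout heart and 2046 in wild-type heart, with ratios of 1.07-fold lower and 1.03-fold higher. A second probe set, close to the floor on all arrays (104 to 129), gave 1.07-fold lower and 1.06-fold higher, and the last was under it. Mbtps2, the gene of the site-2 protease, gave 1275, 1173, 1246 and 1027, so that the knockout pool was 1.09-fold higher in TA and 1.21-fold higher in heart. This gene is on chromosome X, and the pools differed in Xist and Uty as given above. The part of that difference in the ratios of Mbtps2 was not tested.

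**Figure D2:**
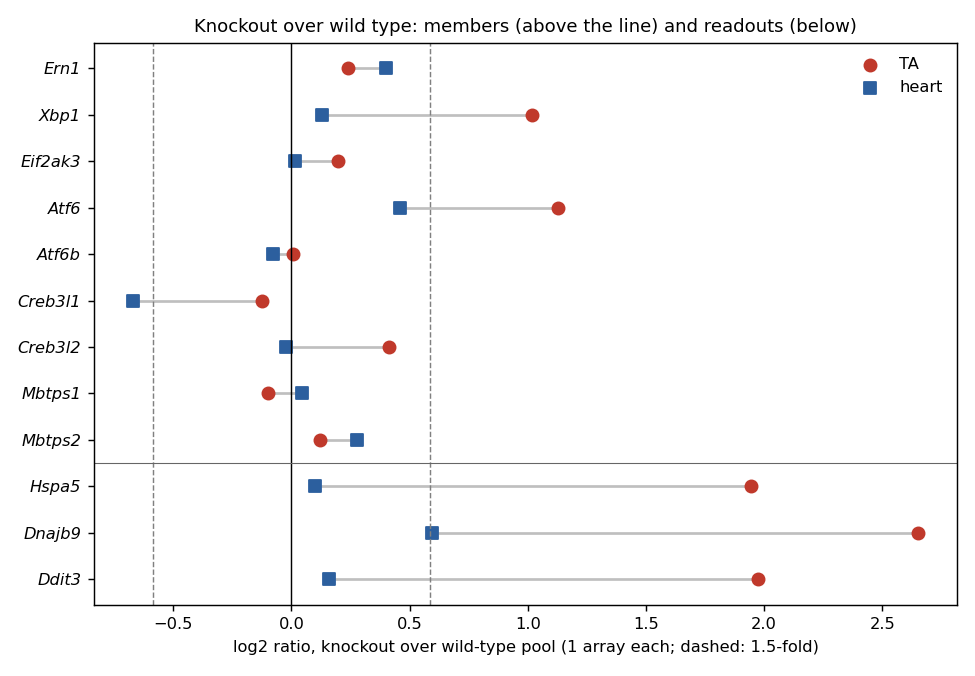
Log2 ratio of knockout over wild-type pool (horizontal axis) for each gene, with a circle for TA, a square for heart, and dashed lines at 1.5-fold; each point is the ratio of 2 arrays. Among the genes above the horizontal line only the circles of Xbp1 and Atf6 lie to the right of the dashed line, at 1.02 and 1.13, and below it the circles of Hspa5, Dnajb9 and Ddit3 lie between 1.94 and 2.65.

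The readouts were higher in knockout TA on every probe set above the floor. Hspa5 gave signals of 34481 in knockout TA, 8957 in wild-type TA, 13074 in knockout heart and 12185 in wild-type heart. Its second probe set (1427464_s_at) gave 30885, 6024, 7731 and 7582, and the dimmest (1447824_x_at) 2528, 1494, 1980 and 2292. Knockout TA was thus 3.85-fold, 5.13-fold and 1.69-fold above wild type, and the heart ratios were 1.07-fold and 1.02-fold higher and 1.16-fold lower. Dnajb9, which is driven mainly through IRE1 and XBP1, gave 13553, 2157, 3546 and 2349, a ratio of 6.28-fold in TA and 1.51-fold in heart. Of these 12 genes it alone was found to pass 1.5-fold upwards in heart. Ddit3 gave 2207, 562, 750 and 672, or 3.93-fold in TA and 1.12-fold in heart, and on a dimmer probe set at least 1.81-fold and at least 1.08-fold.

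On the probe sets that stand for the genes, each arm lay below its readout in TA. Ern1 had a log2 ratio of 0.24 and Xbp1 of 1.02 where Dnajb9 had 2.65. Eif2ak3 had 0.20 where Ddit3 had 1.97. Atf6 had 1.13 where Hspa5 had 1.94. On its dimmest probe set, however, Hspa5 had 0.76, below the Atf6 probe sets at 1.13, 1.35 and at least 0.96. The gap of the ATF6 arm therefore rests on the choice of probe set. These are ratios of each gene to itself between 2 pools, and no signal of a gene was compared with that of another. In heart Atf6 and Ern1 had log2 ratios of 0.46 and 0.40, and Dnajb9 of 0.59, while Hspa5 and Ddit3 had 0.10 and 0.16. Of the 10802 genes measured in both tissues, 0.167% had a difference between tissues as high as Dnajb9, 0.213% as high as Hspa5 and 0.241% as high as Ddit3, against 2.39% for Xbp1.

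Wider lists of genes that each arm is known to drive were counted too. ATF6 and XBP1 both act on the ERSE, so a listed gene may answer to more than its own arm. The counts do not tell the arms apart. Among known ATF6 targets 13 of 14 measured genes were at least 1.5-fold higher in knockout TA and 0 lower, around a median of 1.89 on the log2 scale. Sdf2l1 (5368 against 268), Creld2 (5936 against 510), Herpud1 (13623 against 1465) and Pdia4 (3674 against 470), all genes of ER protein folding or degradation, had the largest ratios, and Os9, an ER lectin gene, at 569 against 535, was the exception. Without Hspa5 the count was 12 of 13. In heart, 0 of 14 were higher and 1, Sdf2l1 with 156 against 236, was lower, around a median of 0.06. The share of all genes called in each direction is that given above for the 9 genes.

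Among known IRE1 and XBP1 targets 8 of 17 were higher in knockout TA and 0 lower, with a median of 0.46. After Dnajb9 the largest ratios belonged to Dnajc3, an ER co-chaperone that also inhibits PERK (7973 against 1284), the disulfide isomerase gene Pdia6 (10008 against 2468) and the co-chaperone gene Dnajb11 (3532 against 1116). The 5 probe sets of Dnajc3 ranged from 1.81-fold to 6.21-fold. Edem1, a gene of ER-associated degradation, had 877 against 904 on its brightest probe set and 765 against 332 on the other. Its 2 probe sets thus disagree. In heart only Dnajb9 passed 1.5-fold, around a median of -0.11.

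Among known PERK and ATF4 targets 15 of 19 were higher in knockout TA and 0 lower, with a median of 1.003. Trib3, a pseudokinase gene, was at least 11.2-fold higher on its brighter probe set, where wild-type TA at 80.6 was under the floor, and 8.16-fold on the other. Asns, the asparagine synthetase gene, had 2554 against 318, the hormone gene Fgf21 687 against 46.5, which is at least 6.78-fold, and Psat1, of serine synthesis, 3061 against 765. Atf4 itself was 1.79-fold higher. Wild-type TA was under the floor for Trib3 (brighter probe set), Cth, Fgf21 and Slc7a11. These genes thus count as measured in TA through the knockout pool alone, and all but Slc7a11 are among the 15. In heart Cth, Fgf21 and Slc7a11 were not measured. There 3 of 16 were higher, Trib3, Cebpb and Ddit4, and 1 lower, Psat1, around a median of 0.15. The brighter probe set of Trib3 gave 1.91-fold higher in heart and the other 1.26-fold lower, so that call rests on 1 probe set. The count of higher genes in heart ran from 2 to 5 over the alternative settings.

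**Figure D3:**
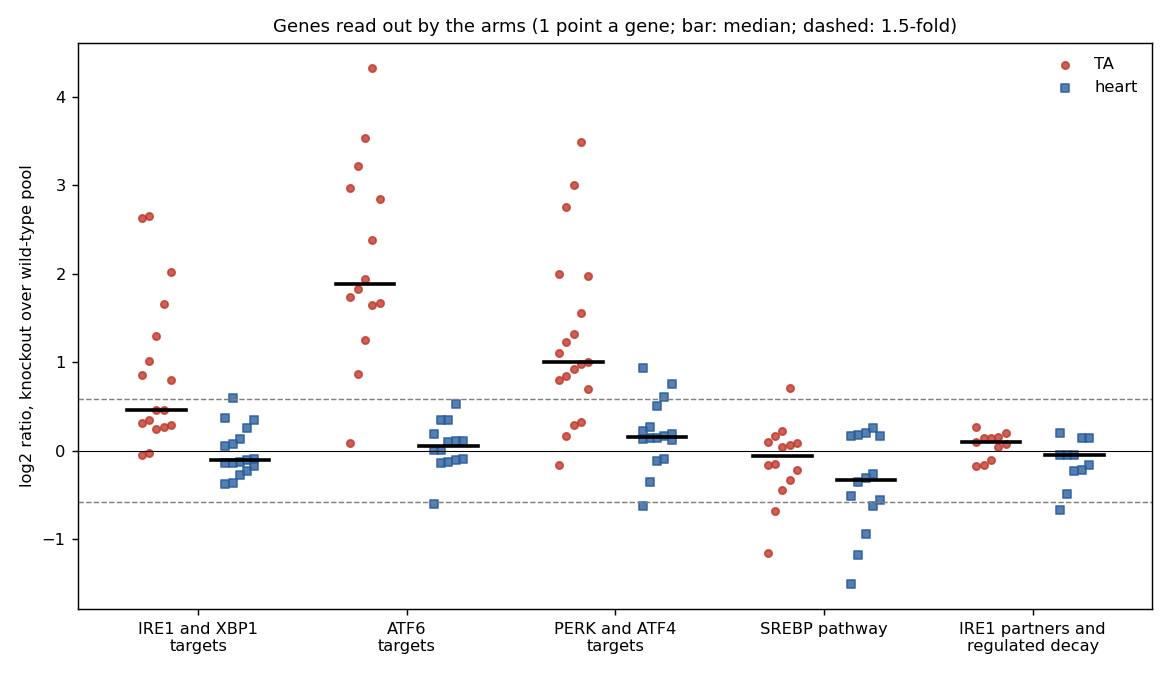
Log2 ratio of knockout over wild-type pool (vertical axis) for the measured genes of 5 lists, with 1 circle a gene in TA and 1 square a gene in heart, a black bar at each median and dashed lines at 1.5-fold. The circles of the ATF6 targets and of the PERK and ATF4 targets lie mostly above the upper dashed line, with medians of 1.89 and 1.003, whereas the squares of those lists gather around 0.06 and 0.15.

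Partners of the sensors were counted next. Of 11 measured IRE1 partners and messengers cut by IRE1, 0 passed 1.5-fold in TA (median 0.10), and in heart 0 were higher and 1, the cell death gene Bak1, was lower with 188 against 300. Rtcb, the ligase gene that completes the splicing of Xbp1, had 2496 in knockout TA, 2369 in wild-type TA, 2310 in knockout heart and 2707 in wild-type heart. Of 10 genes of the other eIF2 kinases, eIF2B and the eIF2 phosphatase, 3 were higher in knockout TA and 0 lower, namely Dnajc3, the adaptor gene Nck1 (1420 against 933) and Ppp1r15a, the regulatory subunit gene of the stress-induced phosphatase (746 against 346). The 2 other probe sets of Nck1 were within 1.06-fold. Dnajc3 and Ppp1r15a were already counted above, among the IRE1 and XBP1 targets and the PERK and ATF4 targets. None of the kinase or eIF2B genes in the list was 1.5-fold higher in knockout TA. In heart 1, the kinase gene Eif2ak2 with 137 against 218, was lower.

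Of 9 genes for partners of ATF6 in the nucleus or in transport, 1 passed 1.5-fold in TA, Nucb1 with 1221 against 771, whose product is known to curb ATF6 cleavage, and 0 did in heart. In a list of other membrane bZIP factors, which also holds the Golgi protein gene Tmf1, 0 of 3 measured genes passed in TA, where Creb3 had 1220 against 911, and Creb3l3 was lower in heart with 105 against 216. Of 8 measured genes in the list of secretory and matrix targets of Creb3l1 and Creb3l2, 0 passed 1.5-fold in either tissue, and the medians were 0.22 in TA and -0.11 in heart. For Golga3 the brightest probe set gave 1.35-fold higher in TA, but a dimmer one gave 2.02-fold (1122 against 555). Over the alternative settings the counts of higher and of lower genes in TA each ran from 0 to 1.

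The site-1 and site-2 proteases also release the sterol regulators SREBP1 and SREBP2, and the genes of that pathway did not follow the ATF6 targets. Of 14 measured in TA, 1 was higher and 2 were lower, and in heart 0 were higher and 4 lower, with medians of -0.06 and -0.33. Sqle, of cholesterol synthesis, had 153 in knockout TA, 340 in wild-type TA, 104 in knockout heart and 294 in wild-type heart. Dhcr7 gave 151, 243, 157 and 241, and Idi1 475, 650, 312 and 705. All 3 were lower in both knockout pools, Idi1 in TA by less than 1.5-fold. Srebf2 gave 270, 166, 131 and 253, higher in knockout TA and lower in knockout heart. Its second probe set was 1.52-fold lower in knockout TA, so its direction in TA rests on the choice of probe set. In heart the second probe set had 63.7, under the floor, against 106.5, hence at least 1.05-fold lower. The call of Srebf2 in heart thus rests on 1 probe set.

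The tissues of the wild type differed in 3 of the 9 genes. In TA, 0 were 1.5-fold higher and 3, Creb3l2, Xbp1 and Atf6, were lower than in heart, where 14.5% and 18.0% of the 11872 genes measured passed in these directions. Atf6 was 1.71-fold and 2.54-fold lower in wild-type TA on its 2 brighter probe sets, and Creb3l2 2.09-fold and at least 2.85-fold. Xbp1 was 2.06-fold lower on the brightest probe set, yet 1.18-fold lower, 1.08-fold higher and 1.24-fold higher on the others. Its difference between tissues therefore rests on 1 of 4 probe sets, unlike its difference between genotypes in TA. Over probe sets, 0 of 15 were 1.5-fold higher and 5 lower, against 13.9% and 17.4%. The 3 readouts had log2 ratios of -0.44 (Hspa5), -0.12 (Dnajb9) and -0.26 (Ddit3).

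The comparison of wild-type tissues uses the same wild-type TA array as that of genotypes in TA, so a low signal there enters both. The same ratio between the knockout pools, which was added with the data in view, does not use it. There Atf6 was 1.08-fold and 1.18-fold lower in TA than in heart on its brighter probe sets but 1.64-fold higher on the dimmest, so its direction rests on the probe set, and Creb3l2 1.54-fold and 1.19-fold lower. On the brightest probe set of Xbp1 knockout TA was 1.11-fold below knockout heart, and on the other 3 it was 1.80-fold, 2.10-fold and 1.80-fold above. Hspa5 was higher in knockout TA than in knockout heart on all 3 probe sets, by 2.64-fold, 3.995-fold and 1.28-fold. Dnajb9 was 3.82-fold higher, and Ddit3 2.94-fold on its brighter probe set and 1.68-fold on the other.

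**Figure D4:**
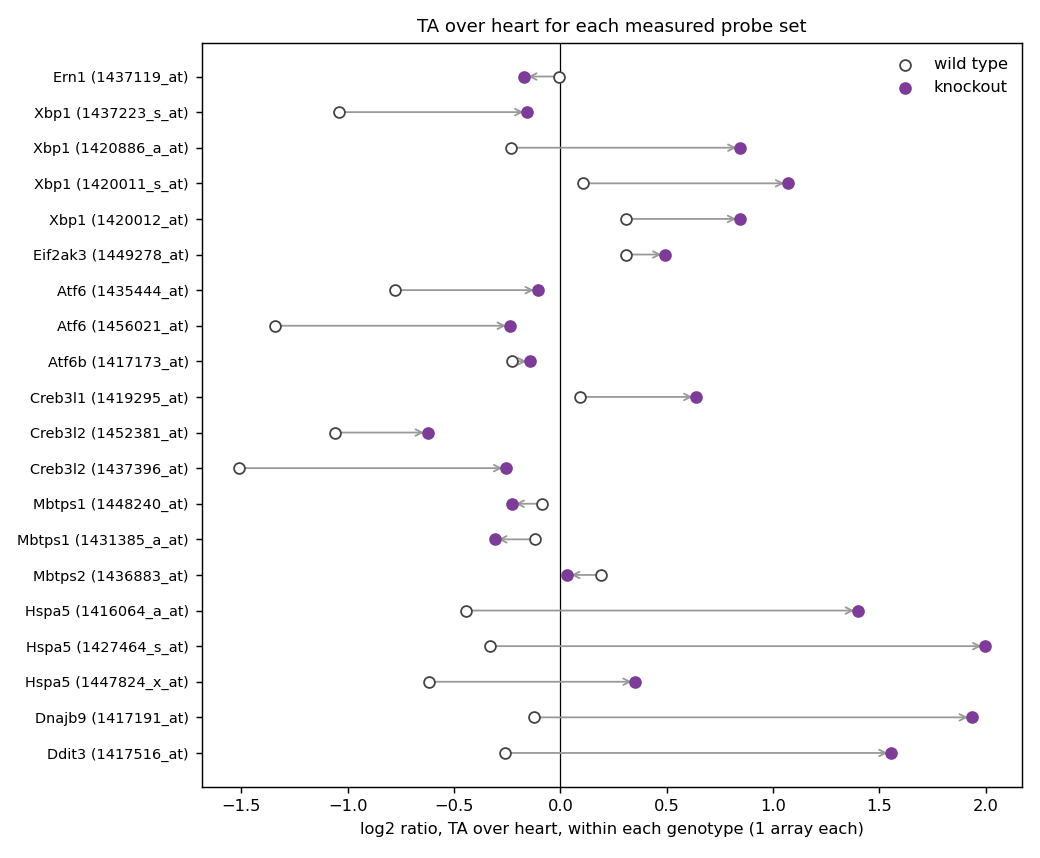
Log2 ratio of TA over heart (horizontal axis) within wild type (open circles) and within knockout (filled circles) for each probe set measured in both, 1 array a point, with arrows from wild type to knockout. The arrows of Xbp1, Atf6, Creb3l2 and the readouts point right, those of Ern1, Mbtps1 and Mbtps2 point left, and the open circles of the 4 Xbp1 probe sets spread from -1.04 to 0.31.

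Over the 4 arrays, the 3 genes whose log2 signals (each centred on its own mean) lay nearest to Xbp1 were Rasgrf2, Tigar and Nubpl, at Euclidean distances of 0.18, 0.22 and 0.23, among 10161 genes above the floor on all arrays. Those nearest to Atf6 were Odf2l, Rasgrf2 and Palm, at 0.18, 0.20 and 0.24. Eif2ak3 had Bag4, Aggf1 and Gaa at 0.01, 0.03 and 0.03, and Ern1 had Rfx3, Fbxl6 and Ubn1 at 0.04, 0.05 and 0.05. With 4 points a pattern, such nearness can arise easily. How common it is was not counted, and it is given as a description only.

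Markers of other cells were set beside these results, since in bulk RNA fewer cells of a type and less RNA per cell cannot be told apart. Of 7 fibroblast markers 0 passed 1.5-fold in either tissue, and their summed signal was 98336 in knockout and 107412 in wild-type TA. Of 6 macrophage markers 0 passed in TA, and of the 5 measured in heart 0 passed. In the B and plasma cell list, a cell type known for high Xbp1, 5 of 7 genes were under the floor on both TA arrays and the summed signal was 573 against 529. The 2 measured genes were both higher in knockout TA by less than 1.5-fold, Mzb1 with 152 against 107 and Ighm with 241 against 166. The summed signal of 6 neutrophil markers was 1234 in knockout and 445 in wild-type TA. Of 3 measured 2 were higher, S100a8 with 740 against 141 and S100a9 with 197 against 96.8. In knockout TA 3 of the 6 were under the floor and in wild-type TA 5, so S100a8 alone was above it on both. In heart the sum was 993 against 716, and of 2 measured S100a9 was higher with 264 against 164. In the cartilage, bone and tendon list, the cells in which Creb3l1 and Creb3l2 are best known, 1 of 5 measured genes was higher in knockout TA (Scx) and 1 lower (Acan), with summed signals of 11978 and 14182. Of the 10 skeletal muscle labels 8 were lower in knockout TA, none by 1.5-fold (median -0.17), and of the 4 heart labels measured there 1 passed, Myl4 with 6406 against 3417, a gene that immature skeletal muscle also expresses. In heart 0 of 10 heart labels passed, and of 2 skeletal labels measured Casq1 was lower with 207 against 566. The part of any of these markers in the ratios of Atf6 and Xbp1 was not tested. Of 6 endothelial markers 1, Egfl7, was lower in knockout TA (994 against 1666), and of 4 Schwann cell markers 0 passed. In the adipocyte list only 1 of 4 genes, Ucp1, was measured in heart, and it was lower in the knockout pool (30.2 against 328). It reached the floor in wild-type heart alone.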

How the data were processed

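The authors deposited MAS5 signal intensities, linear in scale, for 45037 probe sets. MAS5 is named per the submitters' processing notes, its version and scaling target being not given in the sources used here. Of the probe sets, 34945 have 1 gene symbol in the platform's annotation, 932 several and 9160 none. From these, log2 ratios between arrays were computed in Python 3.11.15 (pandas 2.3.3, numpy 2.4.6), with signals raised to the median of all signals (101.3), so a fold with a signal under it is a lower bound, written "at least". A gene is represented by its brightest probe set (mean of the 4 arrays). A call is a ratio of at least 1.5-fold. The scale was left as deposited. All 12 gene identifiers matched RefSeq genes, which give chromosomes and promoters (GRCm38.p6). The code was tested on simulated arrays with planted ratios.

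The members, 19 lists and rules were chosen with earlier results of these data known. Of 194 listed genes, 14 had no probe set of 1 symbol. Named from a list were up to 4 genes with the largest ratio in TA and 2 in heart past 1.5-fold. Those behind counts of 5 or fewer were named too. Hsp90b1, Calr, Canx, Syvn1 and Derl3 are shown for their element, Sel1l is named for the lack of one, and Cth and Slc7a11 are named for the floor. Os9, Edem1, Atf4, Rtcb, Creb3 and Golga3 were picked with their values in view. The 9 alternatives varied the scaling, the floor and the rule for several probe sets. The number of arrays limits the precision.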

Additional observations from a re-analysis of the deposited data

Results flagged for a closer look

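The 9 genes and 3 readouts held no case in which the knockout pool was at least 1.5-fold higher in one tissue and 1.5-fold lower in the other. In the wider lists 3 genes did so, and the difference could not be tested with 1 array a group. The log2 ratio of Sdf2l1 in TA was 4.92 above that in heart (4.32 against -0.60). For Psat1 the difference was 2.62 (2.001 against -0.62), and its second probe set pointed the same ways, at 1.74 and -0.42. For Srebf2 it was 1.65 (0.70 against -0.95), and its second probe set gave -0.60 in TA. In heart the second probe set of Srebf2 gave -0.07 or lower, a bound, because knockout heart was under the floor.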

How the results depend on the processing

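Over the 9 alternatives, 417 of 423 values of single genes (the 9 and the readouts, by comparison) stayed on the same side of 1.5-fold. Of the others, 3 came to pass 1.5-fold, 2 fell short of it and 1 turned direction, Xbp1 in wild-type TA over heart. In TA the log2 ratio of Atf6 ran from 1.09 to 1.14 and that of Xbp1 from 0.60, on the probe set without a suffix, to 1.31. Without the _s, _x and _a probe sets Xbp1 in wild-type TA over heart turned from -1.04 to 0.31, and as the median over probe sets it was -0.06. Its difference between the tissues' log2 ratios fell to 0.54 without them. For Creb3l2 that difference was 0.85 with the median over probe sets, and for Creb3l1 it was 0.59 with quantile normalization of the arrays compared. With a higher floor, the 75th percentile, Creb3l1 was not measured, so the count of lower genes in heart was 0, and the median of wild-type TA over heart was -0.43. Of the counts for the lists 920 of 1026 stayed within 1.5 times; the sterol list had from 0 to 5 lower genes in heart. No paired analysis was possible because each group has 1 array. Signals near the floor limit Atf6b, Creb3l1 and the dim probe sets.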
